A study of Rattus norvegicus with 6 samples.

Results

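Syk and the kinases of the SRC family were examined in cultured rat brain microvascular endothelial cells treated with homocysteine (Hcy) or vehicle (Veh). The group comprised 9 genes of the 33566 in the deposited count table, namely Syk, the SRC family kinases Src, Yes1, Fyn, Lyn, Lck and Fgr, the kinase Csk and the phospholipase Plcg2. They were taken by gene name, and the group was chosen by the low counts of Syk in Hcy, so every Hcy to Veh value of these genes is a description, printed without its p, and counts of these genes past a threshold are descriptions too. Primary cells (rBMECs) were isolated from the brains of SD rats 18 to 22 days old, purified with a screening solution and used after 1 passage. The Hcy group was treated with 100 μM Hcy for 24 h according to the treatment label, whereas the protocols also mention a 50 μM solution, and the Veh group was given sterile water. Each group had 3 libraries, described as biological replicates, of poly(A)-selected RNA from whole cultures. No cells were sorted, so fewer cells of a type and less RNA per cell cannot be told apart.

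SYK is a cytoplasmic tyrosine kinase that binds, through paired SH2 domains, to phosphorylated activation motifs (ITAMs) in the tails of immune receptors, their adaptors and some integrin complexes. SRC family kinases phosphorylate those motifs, and once active SYK passes the signal to adaptors, to VAV exchange factors and to phospholipase C gamma, of which Plcg2 encodes the isoform typical of blood cells. CSK restrains SRC family kinases by phosphorylating their C-terminal tail. SYK is best known from haematopoietic cells, where Lck and Fgr are also mainly used, while Src, Yes1 and Fyn are expressed very broadly and act in endothelium at focal adhesions and cell–cell junctions.

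Libraries held 14024997 to 16764584 counts, and 3 counts, which equal 0.178 to 0.215 CPM (TMM-scaled counts relative to library size), were taken as the floor of detection for counting error only. The first principal component of log2 CPM held 30.9% of the variance and separated the groups, with Hcy libraries from -16.5 to -11.3 and Veh libraries from 7.6 to 23.2. On the second component, with 29.4%, Veh replicate 3 stood at 19.3 while Veh replicates 1 and 2 stood at -15.5 and -18.7. Endothelial markers were abundant: of 13 listed by symbol, 12 were above 3 counts in all 6 libraries, with Vwf at 2288 ± 284 CPM (SD, n = 3) and Cdh5 at 1796 ± 231 CPM (SD, n = 3) in Veh. Cldn5 had 0 counts throughout. A locus without a symbol whose Swiss-Prot match is Pecam1 was at 870 ± 67.5 CPM (SD, n = 3) in Veh.

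Syk (chr17:12614311-12669573, minus strand) was lower in Hcy. It had 283, 312 and 244 counts in Veh replicates 1, 2 and 3 and 76, 78 and 92 counts in Hcy replicates 1, 2 and 3. In CPM these were 16.8, 19.9 and 16.9 in Veh and 5.46, 5.24 and 5.49 in Hcy. The groups did not overlap, and the 3 Hcy libraries lay close together. The mean was 17.9 ± 1.75 CPM (SD, n = 3) in Veh and 5.40 ± 0.137 CPM (SD, n = 3) in Hcy, a ratio of 0.302 and a log2 fold change of -1.73 (standard error 0.13). Across 12 alternative analyses this log2 fold change ran from -1.77 to -1.64, and without Veh replicate 3 it was -1.76. Positions are those of the count table, which names no build. The submitters' processing notes name mRatBN7.2, but the positions listed on chromosome 1 run past the end of that chromosome in mRatBN7.2, so no build is given for them.

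**Figure D1:**
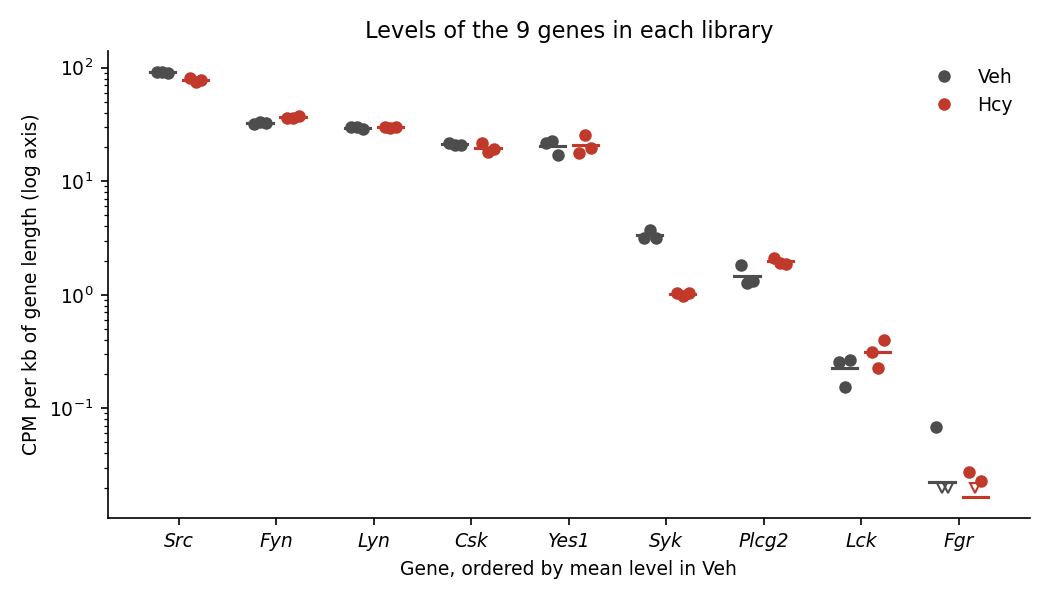
Level of each gene in each library, as CPM per kb of gene length on a log axis, with genes ordered by their Veh mean. Points are libraries (grey Veh, red Hcy), short lines are group means, and open triangles at the bottom are libraries with 0 counts. Syk shows the widest gap between groups among the 8 genes tested, at 3.16 to 3.74 in Veh and 0.986 to 1.03 in Hcy.

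Because Hcy is an intermediate of the methyl donor cycle and the study concerned DNA methylation, the CG dinucleotides of the promoters are shown. The RefSeq promoter table for the rat build GRCr8 had a window for 7 of the 9 genes. In the 250 bases before the listed start, Syk had 5 CG dinucleotides, the median of all 33469 windows, and 92.2% of windows had at least 1. Fyn had 34 and Yes1 31, counts reached by 3.03% and 4.68% of windows. Plcg2 had 18, Fgr 7, Src 3, and Lck 6 and 2 at its 2 listed starts. The Syk and Fyn windows are printed 5′ to 3′ with CG in capitals, Syk because the group turns on it and Fyn because it had the most CG of the 7 genes with a window. The Syk window lies at chr17:12813274-12813523 on the minus strand, inside the gene, which RefSeq places at 12756493 to 12830927. It thus precedes an internal start. The bases before the outer start of the gene, at 12830927, were not examined, so the count for Syk does not describe them. The Fyn window lies at chr20:44322414-44322663 on the plus strand.
Syk: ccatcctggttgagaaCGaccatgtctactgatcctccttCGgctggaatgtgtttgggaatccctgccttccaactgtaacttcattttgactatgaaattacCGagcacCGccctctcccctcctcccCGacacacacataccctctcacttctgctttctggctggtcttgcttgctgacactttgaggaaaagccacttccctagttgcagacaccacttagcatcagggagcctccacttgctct
Fyn: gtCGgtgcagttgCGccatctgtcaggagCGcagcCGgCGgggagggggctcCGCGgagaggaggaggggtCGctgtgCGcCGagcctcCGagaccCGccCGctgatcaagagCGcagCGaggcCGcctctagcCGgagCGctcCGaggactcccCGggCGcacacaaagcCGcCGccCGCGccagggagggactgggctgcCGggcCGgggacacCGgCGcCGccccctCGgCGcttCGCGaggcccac
Methylation at these bases was not measured in the libraries, and the counts describe the sequence only.

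Src had the highest level per kb of all 9 genes. It encodes the founding member of the family and lies on chromosome 3 from 153580861 to 153595642. Its level was 322, 322 and 318 CPM in Veh replicates 1, 2 and 3 and 287, 261 and 275 CPM in Hcy replicates 1, 2 and 3. All Hcy libraries were below all Veh libraries, by a much smaller margin than for Syk, and the log2 fold change was -0.23 ± 0.07 (standard error). Fyn, which encodes a broadly expressed family member, lies on chromosome 20 from 44436403 to 44630317 and pointed the other way. It was at 123, 128 and 125 CPM in Veh and at 139, 138 and 144 CPM in Hcy, so that the groups again did not overlap. Its log2 fold change was 0.16 (standard error 0.07).

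Lyn, a family member known both for activating and for damping immune receptor signals, was level between groups. It was at 103, 103 and 98.3 CPM in Veh and at 103, 101 and 103 CPM in Hcy, and its log2 fold change was 0.01 ± 0.07 (standard error), or -0.01 without Veh replicate 3. The groups overlapped. Yes1, which encodes the kinase YES, varied widely between libraries, with 49.0, 51.0 and 38.1 CPM in Veh and 39.4, 57.2 and 44.1 CPM in Hcy. The lowest Veh library was replicate 3 and the highest Hcy library was replicate 2, and the groups overlapped widely. Its log2 fold change was 0.03 (standard error 0.15) and -0.09 without Veh replicate 3.

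Lck and Fgr were scarce. Lck, the kinase that starts T cell receptor signalling, had 9, 5 and 8 counts in Veh and 9, 7 and 14 counts in Hcy. Its log2 fold change of 0.47 had a standard error of 0.46 and was 0.24 without Hcy replicate 3, and the groups overlapped. Fgr, a myeloid member, had 3, 0 and 0 counts in Veh and 1, 0 and 1 in Hcy, at or under the floor in every library, and was the only gene of the 9 not tested, since it had 5 counts of the 10 required.

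Csk, the negative regulator of the family, was at 50.5, 48.5 and 48.4 CPM in Veh and at 50.9, 41.8 and 44.6 CPM in Hcy. The groups overlapped, since Hcy replicate 1 was above all Veh libraries while the other Hcy libraries were below them, and the log2 fold change was -0.10 (standard error 0.09), or -0.19 without Hcy replicate 1 and -0.04 without Hcy replicate 2. Plcg2, which acts downstream of SYK, was higher in every Hcy library. It was at 6.89, 4.78 and 4.98 CPM in Veh and at 8.04, 7.19 and 7.16 CPM in Hcy. Veh replicate 1 lay close under the Hcy libraries, and the log2 fold change was 0.42 (standard error 0.18), between 0.32 and 0.61 across the alternatives.

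**Figure D2:**
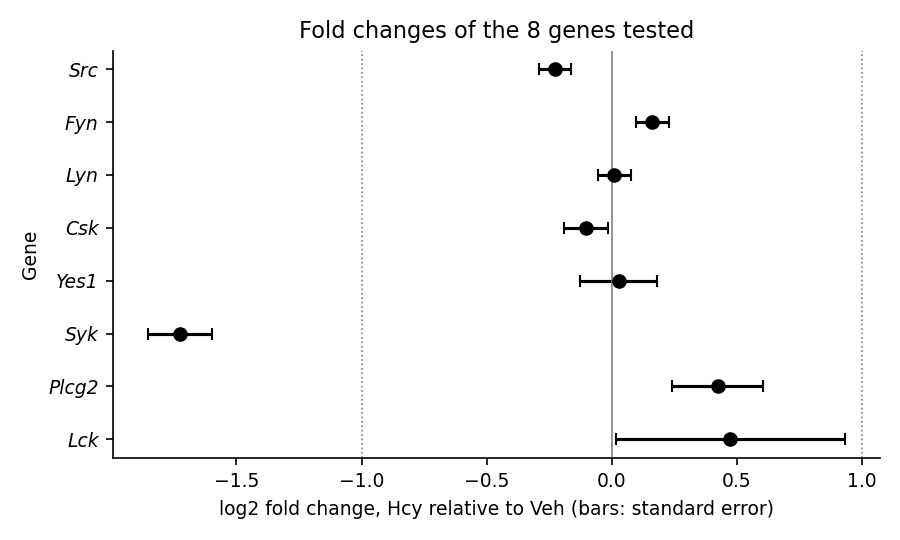
Log2 fold change of Hcy relative to Veh for the 8 genes tested, with standard errors, from edgeR's quasi-likelihood fit of 3 Hcy and 3 Veh libraries. Dotted lines mark a change of 1 on the log2 scale. Syk lies at -1.73, and the other 7 lie between -0.23 and 0.47.

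A gene counted as called when its adjusted p (Benjamini-Hochberg) was 0.05 or lower and its log2 fold change was 1 or more in either direction, which 0.486% of the 14603 genes tested reached. Among the 8 members tested, Syk was called and the other 7 were not. Without the fold threshold, 2.34% of all genes passed the adjusted p, and Syk was again the only member. Of the other 7, 0 were called by edgeR and 0 by DESeq2, and 3 (Src, Fyn and Plcg2) had an unadjusted p under 0.05, as had 13.4% of all genes tested. The groups did not overlap for 4 of the 8 members, against 20.1% of all genes tested. Since the group was chosen by this contrast, nothing is read from these counts.

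Per kb of gene length, the order of levels in Veh was Src, Fyn, Lyn, Csk, Yes1, Syk, Plcg2, Lck and Fgr. Each neighbour pair was separated in the 3 Veh libraries except Csk and Yes1, at 20.8 to 21.7 and 17.0 to 22.7 CPM per kb. Src stood at 90.5 to 91.7 CPM per kb, well above Fyn at 31.9 to 33.2 and Lyn at 28.7 to 30.1. In Hcy, Plcg2 at 1.89 to 2.12 CPM per kb lay above Syk at 0.986 to 1.03, whereas in Veh Syk had been above Plcg2 at 1.26 to 1.81. Yes1 and Csk also changed places by their means, although their ranges overlapped in both groups.

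Relative to Syk, SRC family transcripts were thus far more abundant in Hcy. The ratio of Src to Syk in CPM per kb was 29.0, 24.5 and 28.5 in Veh and 79.6, 75.3 and 75.8 in Hcy. The summed SRC family itself differed little, at 176, 178 and 169 CPM per kb in Veh and 166, 165 and 166 in Hcy, so this ratio moved mostly with its denominator. The ratio of the summed family to its inhibitor Csk was 8.24 ± 0.240 (SD, n = 3) in Veh and 8.45 ± 0.821 (SD, n = 3) in Hcy, with overlapping groups. Within the family, Src made up 52.4 ± 1.04% (SD, n = 3) of the sum in Veh and 47.2 ± 2.22% (SD, n = 3) in Hcy. The share of Fyn was 18.7 ± 0.555% (SD, n = 3) in Veh and 22.0 ± 0.503% (SD, n = 3) in Hcy, and that of Lyn 17.0 ± 0.0795% and 18.0 ± 0.144% (SD, n = 3 in each group). The shares of Src, Fyn and Lyn did not overlap between groups, and that of Yes1, at 10.1 to 12.8% in Veh and 10.6 to 15.5% in Hcy, did. The level of Lyn itself overlapped between groups, so its share moved mostly with the sum.

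**Figure D3:**
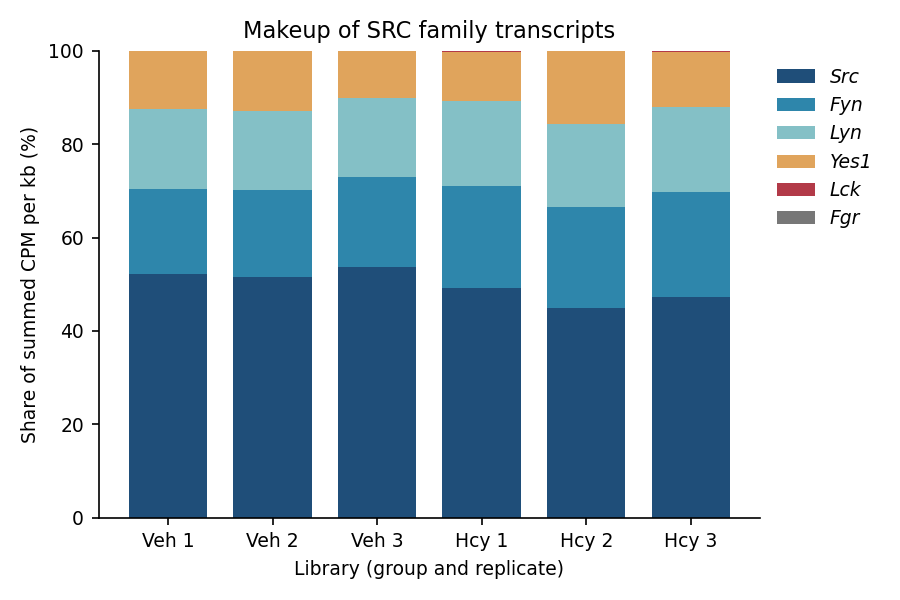
Share of each SRC family member in the family's summed CPM per kb, in percent, for each library. Src makes up 51.5 to 53.6% in the Veh libraries and 44.9 to 49.3% in the Hcy libraries, and Lck and Fgr are too scarce to be visible as more than a line.

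Receptors and adaptors listed for ITAM-type signals were mostly not detected. Of 22 listed genes, 12 had 0 counts in all libraries, among them Tyrobp, Trem2, Gp6, Cd79b and Cd3e, and 5 were tested. None of the 5 was called by edgeR or by DESeq2, where 0.486% of all genes tested were called by edgeR. An unadjusted p under 0.05 was reached by 0, against 13.4% of all genes tested. The median log2 fold change of the 5 was 0.13, against -0.02 for all genes tested. Clec1b, which encodes the podoplanin receptor CLEC-2, had 19, 6 and 7 counts in Veh and 12, 19 and 21 in Hcy (log2 fold change 0.75, standard error 0.46, adjusted p = 0.558 by the quasi-likelihood test of edgeR). Without Veh replicate 1 its log2 fold change was 1.38, and without Veh replicate 2 it was 0.47. Hcst is the gene of the adaptor DAP10, which the list holds although DAP10 carries no ITAM. Hcst had 9, 12 and 10 counts in Veh and 8, 4 and 3 in Hcy (log2 fold change -0.97, standard error 0.54, adjusted p = 0.502 from edgeR), and its log2 fold change without Hcy replicate 1 was -1.54. Clec7a, the gene of the beta-glucan receptor dectin-1, and Fcgr2a, that of an Fc receptor, had at most 11 and 8 counts in any library.

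Of 29 effectors of SYK listed in the table, 25 were tested and 0 were called by edgeR or by DESeq2. An unadjusted p under 0.05 was reached by 5, against 13.4% of all genes tested in either direction. All 5 were higher in Hcy, the direction in which 7.44% of all genes passed. The median log2 fold change was -0.04, with 12 genes above 0 and 13 below. The smallest p was that of Zap70, which the list holds although it encodes the only other kinase of the SYK family, known from T cells, and no target of SYK. It had 130, 101 and 93 counts in Veh and 163, 134 and 170 in Hcy, so that all Hcy libraries were above all Veh libraries. The log2 fold change of Zap70 was 0.58 with a standard error of 0.16 (adjusted p = 0.113, edgeR), and its adjusted p was 0.0778 to 0.352 across 12 alternatives. Prkcd, encoding protein kinase C delta, was at 37.8 ± 0.718 CPM (SD, n = 3) in Veh and 44.2 ± 0.458 CPM (SD, n = 3) in Hcy (log2 fold change 0.22, adjusted p = 0.186 from edgeR). Lcp2, the gene of the adaptor SLP-76, had 37, 40 and 32 counts in Veh and 59, 49 and 53 in Hcy (log2 fold change 0.62, adjusted p = 0.239 from edgeR). Plcg1, the broadly expressed relative of Plcg2, was at 184 ± 18.5 CPM (SD, n = 3) in Veh and 216 ± 6.16 CPM (SD, n = 3) in Hcy (log2 fold change 0.23, adjusted p = 0.264 from edgeR). None of these 4 genes, named for their small p, passed the threshold. The groups did not overlap for them and 3 others, 7 of the 25 tested, against 20.1% of all genes tested. Btk, a kinase of B cells, had 0 counts.

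The regulators of SRC family kinases comprised phosphatases, ubiquitin ligases and adaptors. Of 30 listed, 25 were tested and 0 were called by edgeR or by DESeq2, while 4 had an unadjusted p under 0.05, 2 in each direction, against 13.4% of all genes tested. Their log2 fold changes were above 0 in 5 genes and below 0 in 20, with a median of -0.09, where all genes tested had 6854 above 0 and 7749 below, with a median of -0.02. Lime1, an adaptor that binds CSK at the membrane, had 43, 45 and 32 counts in Veh and 59, 58 and 65 in Hcy (log2 fold change 0.65, standard error 0.20, adjusted p = 0.172 from edgeR). Ptpn6, the gene of the phosphatase SHP-1, had 9, 9 and 7 counts in Veh and 2, 4 and 4 in Hcy (adjusted p = 0.337 from edgeR). Unc119 and Ptpre, a lipid-binding activator of SRC kinases and a receptor-type phosphatase, had log2 fold changes of -0.30 and 0.22 (adjusted p = 0.319 and 0.32 from edgeR). Ptprc, which encodes the leukocyte phosphatase CD45, had 0 counts in all libraries.

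Substrates and scaffolds of SRC kinases were well detected, at 10800 to 11600 CPM in sum in Veh and 11000 to 11500 in Hcy. Of 29 in the table, 27 were tested and 0 were called by edgeR or by DESeq2. The symbol Cttn is repeated in the table, and only its first entry was used. Crkl, found only by its Swiss-Prot match, is outside these counts and the sum. An unadjusted p under 0.05 was reached by 3, 1 higher and 2 lower, against 13.4% of all genes tested, and the median log2 fold change was -0.10. Tns3, encoding tensin-3 of focal adhesions, was the only gene of all 5 lists to pass the adjusted p. It had 481, 458 and 310 counts in Veh and 211, 223 and 256 in Hcy, with no overlap, and fell by 0.80 on the log2 scale (standard error 0.13, adjusted p = 0.0161 from edgeR), short of the fold threshold. Its adjusted p was 3.53e-05 to 0.0961 across the alternatives and exceeded 0.05 when any library except Veh replicate 3 was omitted (0.0721 to 0.0961), while without Veh replicate 3 it was 0.000533 at a log2 fold change of -0.93. Bcar1, the gene of the docking protein p130Cas, was at 290 ± 5.90 CPM (SD, n = 3) in Veh and 246 ± 11.9 CPM (SD, n = 3) in Hcy (log2 fold change -0.24, adjusted p = 0.133 from edgeR, 0.0291 without Veh replicate 3 and up to 0.415 across the alternatives). Sh2d3c, which encodes a partner of p130Cas, had a log2 fold change of 0.22 (edgeR, adjusted p = 0.167), and the RNA-binding substrate gene Khdrbs1 had one of 0.13 (adjusted p = 0.441 from edgeR).

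Among 16 other nonreceptor tyrosine kinases, 12 were tested and 0 were called by edgeR or by DESeq2. An unadjusted p under 0.05 was reached by 1, against 13.4% of all genes tested. The median log2 fold change was -0.02. That 1 gene was Fes, at 43.3 ± 1.27 CPM (SD, n = 3) in Veh and 50.5 ± 3.21 CPM (SD, n = 3) in Hcy (log2 fold change 0.22, adjusted p = 0.236 from edgeR). Tnk2 and Jak3 had log2 fold changes of -0.11 and -0.14 (adjusted p = 0.554 and 0.675 from edgeR). Blk, an SRC family kinase of B cells, had 0 counts. Abl1 had 229, 308 and 12 counts in Veh and 15, 13 and 187 in Hcy, a spread within each group that left its log2 fold change of -1.35 with a standard error of 1.03 (adjusted p = 0.651 from edgeR). Omitting 1 library gave values from -3.54 without Hcy replicate 3 to -0.71 without Veh replicate 2, and -1.88 without Veh replicate 3, with adjusted p of 0.171 to 0.866 from edgeR.

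**Figure D4:**
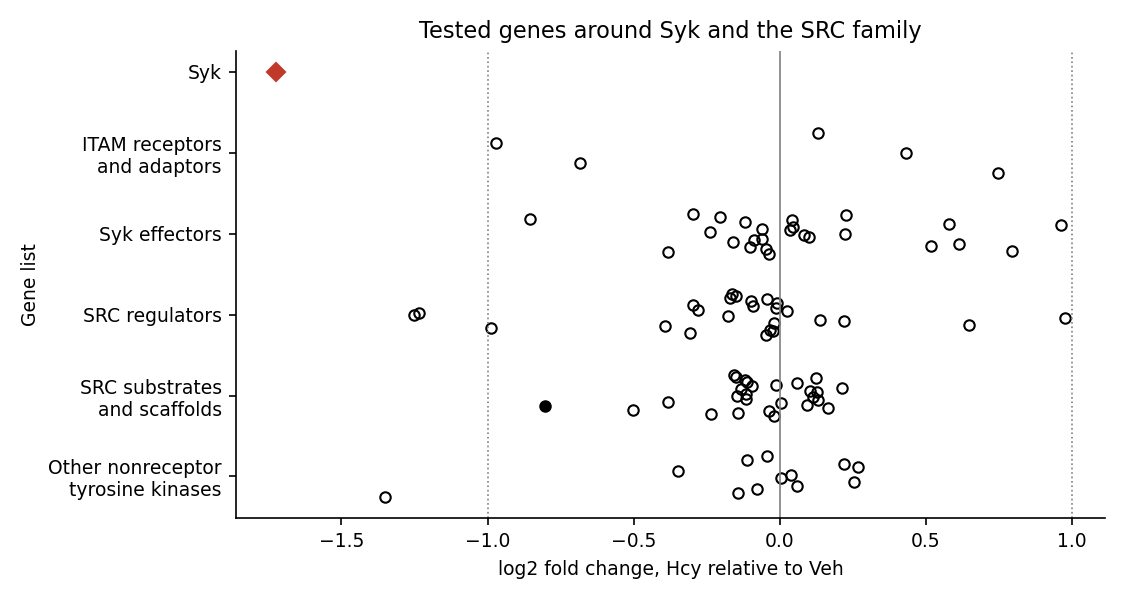
Log2 fold change of Hcy relative to Veh for every tested gene of 5 lists (25 to 27 genes in the 3 middle rows, 5 and 12 in the outer rows), with Syk on top as a red diamond. Filled circles passed an adjusted p of 0.05 in edgeR's test, open circles did not, and dotted lines mark a change of 1. Tns3, at -0.80, is the only filled circle, and Syk lies left of all listed genes.

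Since SYK is best known from haematopoietic cells, markers of other cell types were read beside it. Of 16 markers of microglia or macrophages, 6 had 0 counts in all libraries, namely Ptprc, Tyrobp, Cx3cr1, P2ry12, Trem2 and C1qb. The summed level of the 16 was 9.79 to 10.8 CPM in Veh and 8.73 to 9.84 CPM in Hcy, of which Cd14 alone was 7.63 ± 1.19 and 6.11 ± 0.184 CPM (SD, n = 3 in each group). Of the 7 tested, 0 were called by edgeR or DESeq2 and 0 had an unadjusted p under 0.05, against 13.4% of all genes tested. The 10 lymphocyte markers summed to at most 0.255 CPM in Veh and 0.47 CPM in Hcy. The 6 platelet markers summed to 1.53 to 2.49 CPM in Veh and 2.08 to 3.70 CPM in Hcy, with Gp6 and Ppbp at 0.

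Markers of pericytes and smooth muscle were mixed. The 10 pericyte and smooth muscle markers summed to 1120 to 1350 CPM in Veh and 680 to 708 CPM in Hcy. Of the 10, 3 passed the adjusted p, all lower in Hcy, and Cnn1 alone was called with the fold threshold: Tagln (log2 fold change -0.88, adjusted p = 0.000801 from edgeR), Acta2 (-0.64, adjusted p = 0.0248 from edgeR) and Cnn1 (-1.39, adjusted p = 0.00177 from edgeR), all genes of the contractile apparatus and the source of most of the sum. Of all genes tested, 2.34% passed the adjusted p and 0.486% were called with the fold threshold. Over the 10 genes, however, 5 log2 fold changes were above 0 and 5 below, with a median of 0.20. The pericyte markers Cspg4, Rgs5 and Pdgfrb had at most 16, 9 and 54 counts in any library and log2 fold changes of 1.66, 1.26 and 0.73 (adjusted p = 0.188, 0.464 and 0.443 from edgeR). Abcc9 and Notch3 had log2 fold changes of 0.87 and 0.44, Kcnj8 one of -0.99, and Myh11, a smooth muscle myosin gene, one of -0.04 (adjusted p = 0.641, 0.705, 0.46 and 0.981 from edgeR). The 8 epithelial markers summed to 2.97 to 3.63 CPM in Veh and 1.01 to 1.41 CPM in Hcy. Most of the sum was the claudin gene Cldn4, except in Hcy replicate 3. There Cldn4 was at 0.48 CPM, beside Cdh1 at 0.42 and Krt8 at 0.36 CPM. Cldn4 was called (log2 fold change -1.92, adjusted p = 0.0165 from edgeR), while Epcam had at most 1 count. Fibroblast markers summed to 63.5 to 91.2 CPM in Veh and 44.9 to 68.7 CPM in Hcy. Most of that sum was Col1a1 (log2 fold change -0.52, adjusted p = 0.264 from edgeR). Of the 4 fibroblast markers tested, 3 had log2 fold changes above 0 and 1 below, with a median of 0.297. Oligodendrocyte markers summed to 11.3 to 12 and 10.9 to 12.7 CPM, astrocyte markers to 0.416 to 1.66 and 0.716 to 1.01 CPM, and neuron markers to 1.08 to 1.37 and 1.95 to 2.75 CPM, in Veh and Hcy respectively. Most of the neuron sum was Syt1 (log2 fold change 0.85, adjusted p = 0.195 from edgeR), while Rbfox3, Snap25 and Map2 had 0 counts. Endothelial markers summed to 9000 to 10400 CPM in Veh and 10500 to 10900 CPM in Hcy, without overlap. Without Vwf the sums were 7880, 7720 and 7020 CPM in Veh and 7950, 7920 and 7640 CPM in Hcy, and the groups overlapped. These sums leave out the Pecam1 locus, which has no symbol. That locus was at 863, 806 and 940 CPM in Veh and at 1133, 1040 and 1133 CPM in Hcy, without overlap. Of the 12 tested, 0 passed the adjusted p in edgeR and 6 had an unadjusted p under 0.05 (4 higher and 2 lower in Hcy), against 13.4% of all genes tested, while Vwf (log2 fold change 0.36) and Eng (-0.27) passed the adjusted p in DESeq2. Among the 4 higher was Robo4 (log2 fold change 2.04, standard error 0.61, adjusted p = 0.156 from edgeR). Robo4 had 91, 63 and 39 counts in Veh and 331, 349 and 56 in Hcy, so that Hcy replicate 3 lay within the Veh range. The Pecam1 locus was at 1102 ± 53.6 CPM (SD, n = 3) in Hcy (log2 fold change 0.34, adjusted p = 0.0563 from edgeR). The part of these cell types in the Syk difference was not tested.

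The profile of Syk over the 6 libraries was compared with that of 11787 other genes with a mean of at least 1 CPM, by the root mean square difference of log2 CPM centred on the Veh mean. The 5 most similar genes were Spp1 (0.144), Fam111a (0.174), Akap5 (0.273), Cnn1 (0.283) and Lox (0.295). Spp1 encodes the secreted matricellular protein osteopontin and was at 25.6 ± 2.35 CPM (SD, n = 3) in Veh and 7.66 ± 0.686 CPM (SD, n = 3) in Hcy. Akap5, a scaffold for protein kinase A, was at 11.3, 11.9 and 7.06 CPM in Veh and 3.30, 3.76 and 2.69 CPM in Hcy, so that Veh replicate 3 was lowest among the Veh libraries for this gene but not for Syk. Lox encodes lysyl oxidase, which crosslinks collagen, and was at 44.1 ± 5.21 CPM (SD, n = 3) in Veh and 16.4 ± 1.86 CPM (SD, n = 3) in Hcy. The likeness was chosen on the same libraries and is a description only.

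**Figure D5:**
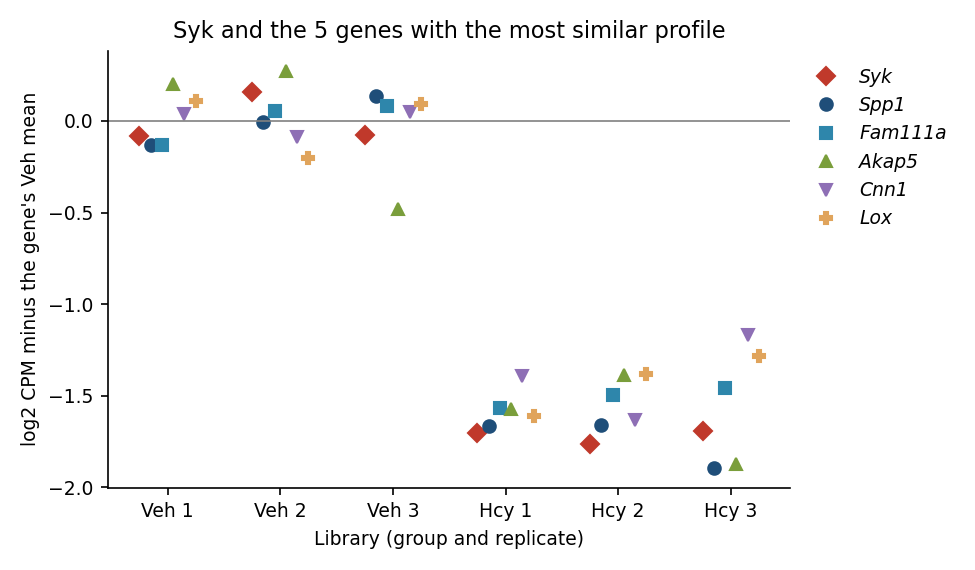
Log2 CPM of Syk and of the 5 genes with the most similar profile in each library, each centred on its own Veh mean. All 6 genes lie between -1.90 and -1.17 in the Hcy libraries, and in the Veh libraries they lie between -0.48 and 0.28, where Akap5 in Veh replicate 3 is the lowest.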

How the data were processed

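RNA-seq was analysed in 3 Hcy and 3 Veh libraries of rBMECs. The deposited table held raw read counts per gene for each library, with gene length and position. Per the labels, the processing notes name fastp, HISAT2 2.2.1, StringTie 2.2.3, Cufflinks, featureCounts 2.0.6 and DESeq2 1.42.0. Strandedness was not given in the sources used here, so overlapping antisense reads cannot be separated. The authors' table of fold changes and p-values was not used, and 0 sample columns were left out. No source says whether replicates came from separate isolations, so p-values measure the spread between these libraries only.

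Libraries held 14024997 to 16764584 counts. Genes with at least 10 counts over the 6 libraries were tested with edgeR 4.0.16 (R 4.3.3) by TMM scaling and the quasi-likelihood F test with Benjamini-Hochberg adjustment over all 14603 genes. The standard error is the absolute log2 fold change divided by the square root of F. CPM values use TMM-scaled library sizes, and CPM per kb divides them by the listed gene length. Alternatives were DESeq2 1.42.0, its size factors, library totals, other count filters, no fold threshold, a replicate block and leaving out each library. On simulated counts of 14401 genes for this comparison, edgeR recovered 199 of 200 genes planted at an absolute log2 fold change of 2, with 2 false calls. Scarce genes were not among those planted, and the simulated spread followed the trend fitted over all genes. Recovery of scarce genes, or of genes that vary more than the trend, was thus not measured. The members and lists were chosen with earlier results of these data known.

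Named genes were all 9 members, the called genes and up to 4 genes with the smallest p in each of 5 lists, the most abundant and any called marker genes, and the 5 genes most like Syk. Other marker genes named as defining ones, and Btk, Blk, Ptprc and the receptors at 0 counts, were chosen after their values were seen. Promoter sequences are from RefSeq (GRCr8). Protein sequences were not used here, so the planned comparison of protein identity was not run.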

Additional observations from a re-analysis of the deposited data

How the results depend on the processing

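Syk passed both thresholds in all 12 alternatives and members called stayed at 1, which is no independent support, since the group was chosen by the fall of Syk in these libraries. Src (-0.26 to -0.19) and Fyn (0.14 to 0.17) kept their sign in log2 fold change, whereas Yes1 (-0.14 to 0.14) changed sign in 2 of 12 and Lyn (-0.01 to 0.02) in 1. The number of genes called over the whole table, 71, became 109 with no filter on low counts, 341 with no fold threshold and 100 with DESeq2, and ranged from 39 to 112 over the 6 fits that omit 1 library each. With no fold threshold, 1 gene of the SRC substrates and scaffolds passed (Tns3). Without division by gene length, the Src share of the family in Veh was 54.0%. A replicate block gave 82 genes called and 1 member called. The numbers share no stated origin, and same-numbered libraries correlated at -0.032, 0.231 and 0.055, so they were not taken as pairs. The cause of these shifts was not tested. At this depth 3 counts equal 0.178 to 0.215 CPM, which leaves Lck imprecise and Fgr without a fold change.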

Other observations

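Among 9584 genes with a mean of at least 5 CPM, 24 differed over 4-fold between the highest and the lowest library in both groups (after adding 1 CPM). Abl1 was 1 of them, at 13.6, 19.6 and 0.831 CPM in Veh and 1.08, 0.873 and 11.2 CPM in Hcy, and 0 of the 7 kinases and partners described above that reached this level were. Another locus with the same Swiss-Prot match as Abl1 had 54, 62 and 39 counts in Veh and 33, 84 and 46 in Hcy.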
